A study of Mus musculus with 2 samples.

Results

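Plain Plvap capillary cells are capillary endothelial cells of the mouse ileum that carried Plvap and lacked Esm1 and Adamts4 or Bcr above a low limit. They were chosen by gates on raw UMI counts (unique molecular identifiers, each standing for 1 captured transcript). A cell needed at least 500 genes, at most 15% mitochondrial UMIs and at least 5 UMIs of the blood endothelial genes Flt1, Cd34, Plvap and Esam together. It could hold at most 2 UMIs of the lymphatic genes Mmrn1, Lyve1, Reln and Prox1, at most 1 of the venous genes Ackr1, Selp and Madcam1, and at most 1 of the arterial genes Sema3g, Fbln5, Stmn2, Gja5 and Bmx. Plvap had to exceed Gpihbp1 plus Aqp1, Adamts4 plus Bcr could reach at most 1, and Esm1 had to be 0. These gates took 403 of the 7045 cells that passed the cell filter, out of 7328 barcodes.

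The data were 2 droplet-based 3' single-cell RNA libraries made from endothelial cells of the ileum, the distal small bowel. The mice were C57Bl/6 males of wild-type genotype, 8 weeks old. Sorting had removed EpCAM+ epithelial cells and CD45+ leukocytes and had collected CD31+ cells, both PDPN- (blood endothelium) and PDPN+ (lymphatic endothelium). Both libraries carry the same labels and form 1 group, so there is no treatment, and every comparison is between kinds of cells within the same libraries. Nothing in the labels ties a library to a mouse or a cell to a sort gate. P-values therefore measure only how far class differences varied between these 2 libraries, a spread that may be technical.

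Capillaries of the small intestine take up absorbed nutrients, and many of them have fenestrae, pores through the cell that are spanned by a diaphragm. The protein PLVAP forms the fibrils of that diaphragm and of the diaphragms of caveolae. Other capillary endothelium, rich in the lipoprotein lipase anchor GPIHBP1 and the water channel AQP1, resembles the continuous capillaries of muscle and fat, where endothelial cells hydrolyse lipoproteins and pass fatty acids on.

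Library 1 held 72 plain Plvap cells of 978 cells (7.36%, 95% Clopper-Pearson interval 5.80 to 9.18%) and library 2 held 331 of 6067 (5.46%, 4.90 to 6.06%). The intervals cover counting error only, and the shares also follow from the sort. Plain cells had medians of 2509 and 3207 UMIs and 1443 and 1583 genes in libraries 1 and 2, in which order values of both libraries are given throughout. Their mitochondrial share was 2.56 and 2.66% at the median. The libraries share 2 barcodes, of which 1 is a plain cell in library 2. In library 2 the ribosomal RNA-overlapping transcript Gm42418 took 5.75% of the plain cells' UMIs, against 2.72% in library 1. Of 3619 genes with a mean of at least 50 CPM (UMIs scaled to a class total of 1e6) in plain cells, 97.2% lay within 2-fold between the libraries.

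Set against the other cells passed by the same capillary gates, the plain cells were a minority, which goes against the description of them as the common fenestrated capillary cell. Of 2352 capillary cells with more Plvap than Gpihbp1 plus Aqp1, 403 were plain (17.1%, 15.6 to 18.7%). Another 268 (11.4%, 10.1 to 12.8%) carried Esm1 with at most 1 UMI of Adamts4 plus Bcr, and are called Esm1 cells below. The other 1681 (71.5%, 69.6 to 73.3%) had at least 2 UMIs of Adamts4 plus Bcr, and are called Adamts4/Bcr cells. A further 1099 capillary cells had more Gpihbp1 plus Aqp1 than Plvap, and are called Gpihbp1/Aqp1 cells.

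The share of plain cells was higher among shallow cells. In cells with under 2000 UMIs, 52.9 and 48.3% of Plvap capillary cells were plain. From 2000 to under 4000 UMIs the shares were 26.6 and 19.2%, and from 4000 to under 6000 they were 6.52 and 11.4%. At 6000 UMIs or more 17.6% (6 of 34 cells) and 5.29% (18 of 340 cells) were plain, so plain cells were found at every depth. Plain cells were shallower than the other Plvap classes, with medians of 2509 and 3207 UMIs against 3358.5 and 4139.5 in Esm1 cells and 4136 and 4390.5 in Adamts4/Bcr cells. When every cell was thinned to 2000 UMIs before gating, 93 of 790 cells (11.8%) and 638 of 5164 cells (12.4%) passed the gates for plain cells. Of these, 47.3 and 39.5% were plain at full depth, 25.8 and 30.3% were Adamts4/Bcr cells, 16.1 and 18.2% were arterial cells and 8.60 and 9.09% were Esm1 cells.

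**Figure D1:**
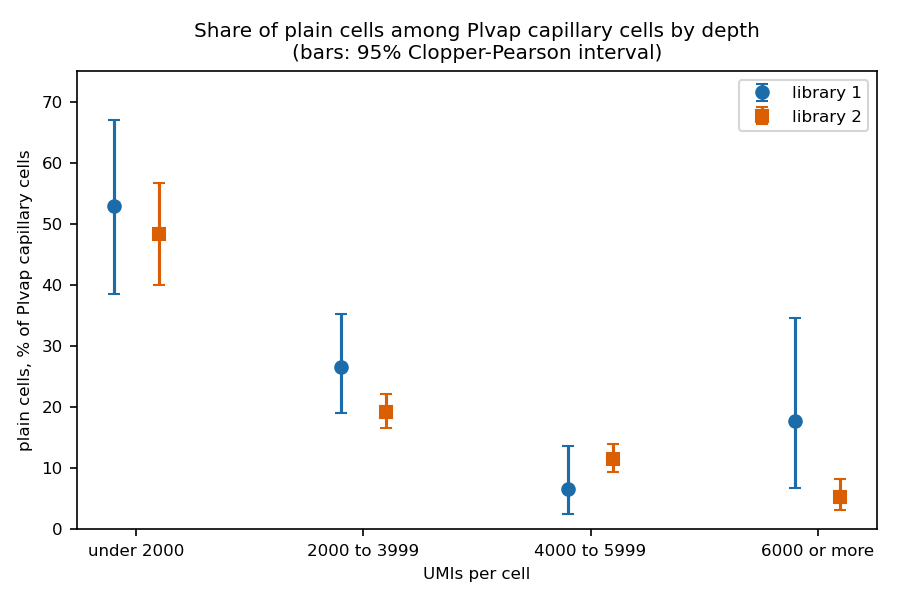
Share of plain cells among Plvap capillary cells (y axis, percent) in 4 bins of UMIs per cell (x axis), for library 1 (circles) and library 2 (squares), with 95% Clopper-Pearson intervals. The share lies near 50% under 2000 UMIs (52.9 and 48.3%) and at 17.6 and 5.29% from 6000 UMIs on.

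The 5 genes given as marks of these cells were Plvap, Scgb3a1, Slco2a1, Igfbp7 and Nkx2-3. Plvap was part of the gate and the others came with the choice of the cells, so their values are a description with no test. In GENCODE vM21 on GRCm38, Plvap lies at chr8:71497765-71511752 on the minus strand, Scgb3a1 at chr11:49663610-49665118 (plus), Slco2a1 at chr9:102988712-103096002 (plus), Igfbp7 at chr5:77349240-77408041 (minus) and Nkx2-3 at chr19:43612325-43615892 (plus). The 250 bases upstream of the RefSeq transcription start (GRCm38.p6) are shown for the 4 markers with an entry, because these genes were high together in the cells. Plvap is named only. The Slco2a1 window lies inside the GENCODE span given above, so the RefSeq start used for it is not the GENCODE gene start. Each promoter is written 5' to 3' on the gene's strand, and capitals mark matches to motif letters listed after them.
Nkx2-3, chr19:43612075-43612324, plus strand: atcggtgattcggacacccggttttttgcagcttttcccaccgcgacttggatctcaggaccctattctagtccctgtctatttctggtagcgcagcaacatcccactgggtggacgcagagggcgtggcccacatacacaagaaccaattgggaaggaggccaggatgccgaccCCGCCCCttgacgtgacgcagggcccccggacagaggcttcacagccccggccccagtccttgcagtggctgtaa
Scgb3a1, chr11:49663345-49663594, plus strand: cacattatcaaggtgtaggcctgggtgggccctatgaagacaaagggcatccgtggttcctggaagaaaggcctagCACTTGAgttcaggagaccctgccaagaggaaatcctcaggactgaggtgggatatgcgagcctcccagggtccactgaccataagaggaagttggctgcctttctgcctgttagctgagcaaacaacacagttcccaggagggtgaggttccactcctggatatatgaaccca
Slco2a1, chr9:103008237-103008486, plus strand: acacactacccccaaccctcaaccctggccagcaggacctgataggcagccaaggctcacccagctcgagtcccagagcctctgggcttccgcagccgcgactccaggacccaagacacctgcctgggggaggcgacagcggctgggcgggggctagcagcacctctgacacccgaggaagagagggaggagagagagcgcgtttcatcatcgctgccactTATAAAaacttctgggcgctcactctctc
Igfbp7, chr5:77408046-77408295, minus strand: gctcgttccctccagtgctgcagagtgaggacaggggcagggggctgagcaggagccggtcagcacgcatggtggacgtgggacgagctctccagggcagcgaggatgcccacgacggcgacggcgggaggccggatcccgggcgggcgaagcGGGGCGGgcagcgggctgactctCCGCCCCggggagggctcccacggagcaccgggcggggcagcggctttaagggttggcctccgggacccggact
The search covered both strands for CCACACCC or CCGCCCC (bound by Krüppel-like factors), CACTTAA or CACTTGA (bound by NKX2 factors), ACCGGAA or ACAGGAA (bound by ETS factors), TGTTTAC (FOX) and AACAATG (SOX), and the plus strand for TATAAA, the TATA box. Nkx2-3 held CCGCCCC starting 75 bases before the start site, and Igfbp7 held it at 97 bases on the minus strand and 74 on the plus strand. Scgb3a1 held CACTTGA at 174 bases and Slco2a1 held TATAAA at 29 bases. The other motifs did not match in these windows. Among 32851 RefSeq promoters of the same length, 23.4% held one of the Krüppel-like factor motifs, 4.67% an NKX2 motif, 7.59% the TATA box, 9.84% an ETS motif, 3.17% the FOX motif and 3.29% the SOX motif. A match is a stretch of letters and says nothing of binding.

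Plvap measured 4494 and 4399 CPM in plain cells, 4614 and 5148 CPM in Esm1 cells, 4714 and 4631 CPM in Adamts4/Bcr cells and 259 and 393 CPM in Gpihbp1/Aqp1 cells, the last set low by the gate. Nkx2-3, a homeobox factor of gut and spleen vessels, measured 676 and 693 CPM in plain Plvap cells, against 41.5 and 43.7 CPM in Gpihbp1/Aqp1 cells. It was at 591 and 598 CPM in Esm1 cells and 576 and 580.4 CPM in Adamts4/Bcr cells. The 3 Plvap classes thus lay close together, with plain cells slightly ahead in unscaled values that were not tested. Cells with 2 UMIs of Adamts4 plus Bcr, just outside the gate, had more, at 847 and 768 CPM. The lymphatic class had 0 and 9.06 CPM. Scgb3a1, a small secreted protein of the secretoglobin family, measured 1738 and 2306 CPM in plain Plvap cells, against 173 and 277 CPM in Gpihbp1/Aqp1 cells. Its plain cell values overlapped those of Adamts4/Bcr cells (1739.5 and 2249 CPM).

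Slco2a1, the prostaglandin transporter, did not mark the plain cells most. It measured 1198 and 1636 CPM in plain Plvap cells, against 1976 and 2144 CPM in Adamts4/Bcr cells, and venous cells had 3538 and 2406 CPM. Gpihbp1/Aqp1 cells had 14.95 and 78.5 CPM. Igfbp7, a secreted protein of vessel basement membranes, measured 7364 and 7138 CPM in plain Plvap cells, against 8382 and 9128 CPM in Adamts4/Bcr cells. In Gpihbp1/Aqp1 cells it was at 2741 and 3212 CPM, so it was present in both kinds of capillary. After thinning to 2000 UMIs, 60 and 60.6% of plain cells (45 and 259 cells) had an Nkx2-3 UMI, against 0 and 0.749% of lymphatic cells thinned alike (56 and 534 cells), a type that should lack the gene. Shallower cells were left out, and over all plain cells the shares were 61.1 and 71.9%, at median depths of 2509 and 3207 UMIs, against 0 and 2.31% of lymphatic cells at 2832 and 2128 UMIs. Scgb3a1 was seen in 66.7 and 74.9% of thinned plain cells (70.8 and 75.2% unthinned), against 0 and 2.43% of lymphatic cells (2.47 and 4.92% unthinned). Slco2a1 was seen in 75.6 and 79.5% of thinned plain cells (75 and 83.1% unthinned), against 5.36 and 11.05% of lymphatic cells (8.64 and 11.6% unthinned). Each of the 3 genes was thus seen in most plain cells. Lymphatic cells were those with at least 3 UMIs of the lymphatic genes and under 5 of the blood endothelial genes. That gate kept blood endothelial RNA low in them, so the contrast is a description.

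**Figure D2:**
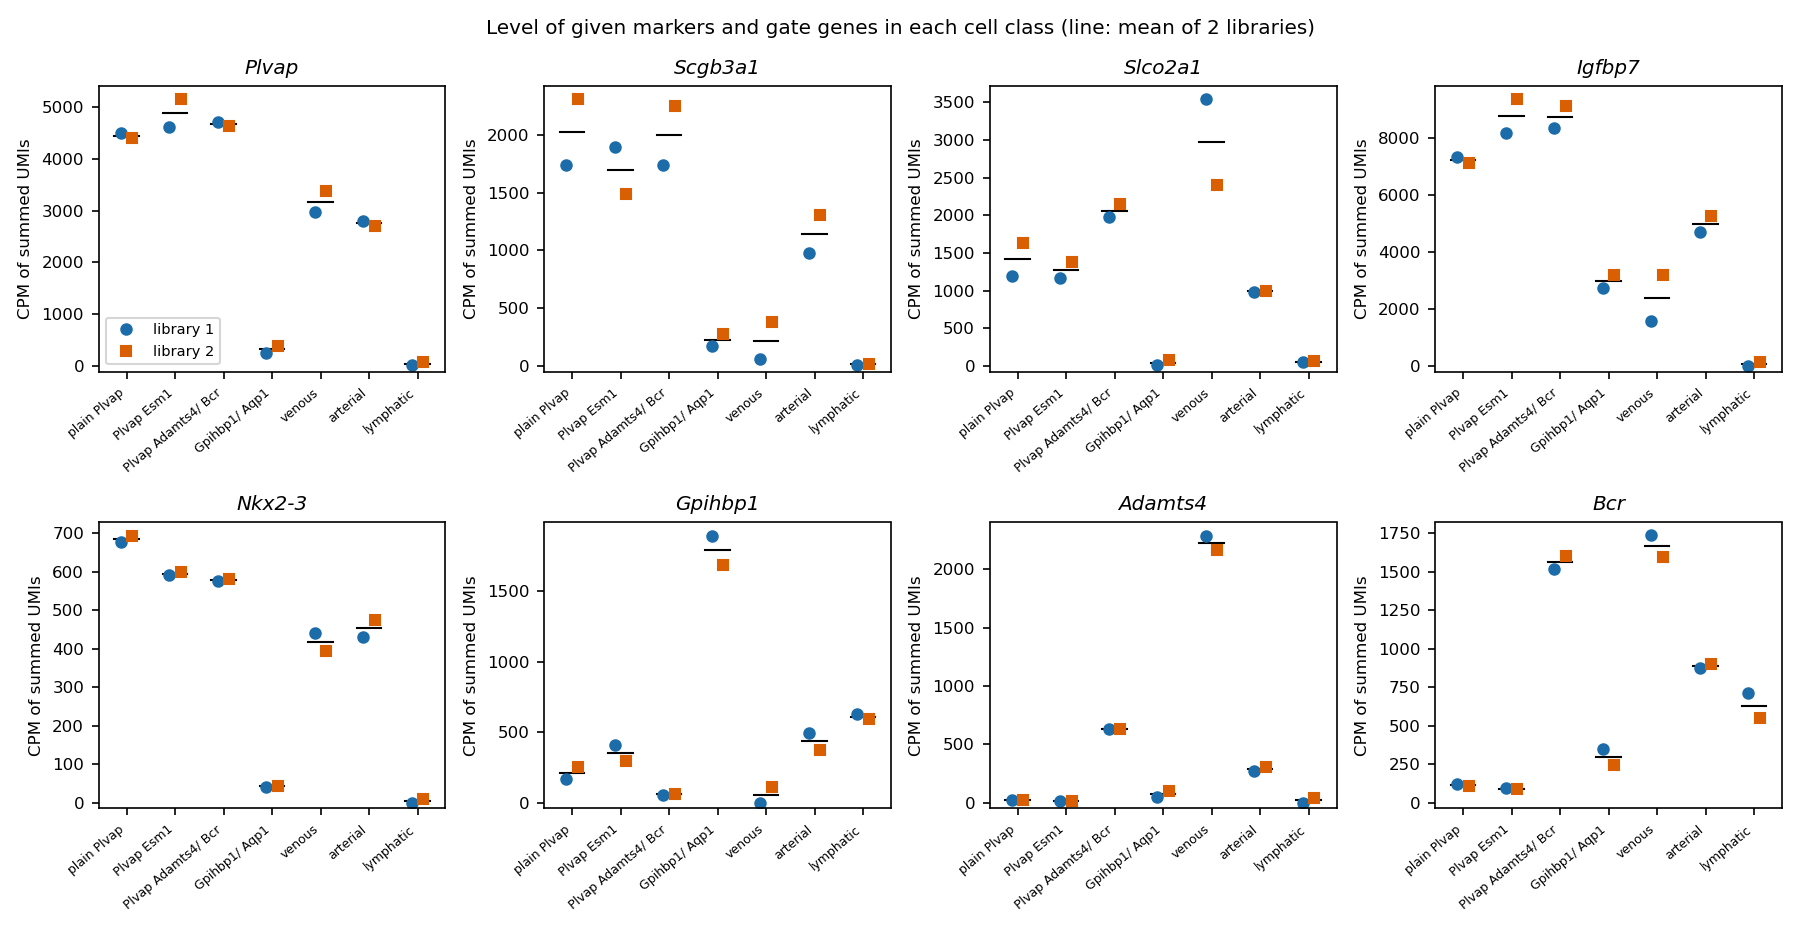
Level (y axis, CPM of summed UMIs, linear) of the 5 given markers and 3 gate genes in 7 cell classes (x axis, plain Plvap cells leftmost), with library 1 as circles, library 2 as squares and the mean of both as a line. Plvap, Scgb3a1, Igfbp7 and Nkx2-3 lie at similar levels in the 3 Plvap capillary classes and lower in Gpihbp1/Aqp1 cells, and Slco2a1 is highest in venous cells.

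The gate genes are given as a description of what the gates selected. Adamts4, a matrix protease, was at 18.8 and 25.6 CPM in plain cells, against 628 and 632 CPM in Adamts4/Bcr cells. Bcr, a GTPase regulator, was at 122 and 110.5 CPM in plain cells, against 1518 and 1604 CPM in Adamts4/Bcr cells. Gpihbp1 was not absent from plain cells, at 169 and 254 CPM, against 1892 and 1688 CPM in Gpihbp1/Aqp1 cells. The pan-endothelial genes Pecam1, Cdh5, Kdr, Tie1, Egfl7 and Emcn summed to 6781 and 6236 CPM in plain cells. T and NK cell markers (4 genes) and Ptprc, the leukocyte marker CD45, had no UMI in plain cells of either library. Fibroblast markers were at 0 and 44.7 CPM, epithelial markers at 4.70 and 12.8 CPM, smooth muscle markers at 4.70 and 11.9 CPM, glial markers at 0 and 1.83 CPM and red cell markers at 0 and 0.913 CPM. Pericyte markers summed to 84.5 and 131 CPM, myeloid markers to 32.9 and 25.6 CPM and B and plasma cell markers to 9.39 and 45.7 CPM. Venous markers, partly limited by the gates, summed to 310.0 and 254 CPM, and arterial markers to 333 and 312 CPM. In library 1 the lymphatic genes Prox1, Lyve1, Mmrn1, Reln and Pdpn had no UMI, and the whole lymphatic list, most of it Flt4, summed to 117 and 117 CPM.

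Values just inside and just outside the gates are given once. With Plvap ahead of Gpihbp1 plus Aqp1 by 1 or 2 UMIs (7 and 36 plain cells), Plvap was at 2185 and 1682 CPM and Slco2a1 at 282 and 1009 CPM. With a margin of 0 or -1 (12 and 50 cells outside), Plvap was at 650.5 and 492 CPM and Slco2a1 at 0 and 70.3 CPM. Cells just inside this gate carried less Plvap than plain cells as a whole and more than cells just outside. The gate used Plvap, so this order follows in part from the gate. Plain cells with 0 UMIs of Adamts4 plus Bcr (42 and 182 cells) had 1507 and 2307 CPM of Scgb3a1 and 712 and 706 CPM of Nkx2-3. Those with 1 UMI (30 and 149 cells) had 1930 and 2304 CPM of Scgb3a1 and 646 and 680.0 CPM of Nkx2-3. Cells just outside, with 2 UMIs (21 and 109 cells), had 2395 and 2638 CPM of Scgb3a1 and 847 and 768 CPM of Nkx2-3. Both markers were higher just outside this gate than just inside it. Cells with 1 Esm1 UMI (18 and 88 cells outside) had 2104 and 1609 CPM of Scgb3a1. With 5 or 6 UMIs of the blood endothelial genes (2 and 8 plain cells), Plvap was at 2099.96 and 1989 CPM, against 1545 and 1060.2 CPM with 3 or 4 (2 and 9 cells outside). Plvap counts towards that sum, so this order too follows in part from the gate.

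Which genes set the plain Plvap cells apart from the Gpihbp1/Aqp1 capillary cells was asked first. Plain cells were higher in the sialic acid enzyme gene Cmah, in Igfbp4, Col15a1, Tgfbr2, Ace and Calcrl, and lower in Bmp6, Lpl, Meox2, Cldn5 and Timp4, each by more than 4-fold. Genes of lipid handling, caveolae, junctions and the interferon response that passed were mostly lower in plain cells, and the genes of coagulation and purine handling that passed were higher. UMIs were summed per library and class, edgeR's quasi-likelihood test took the library as a block, and p-values were adjusted by Benjamini-Hochberg over all 9066 genes tested. Of these, 1321 passed a false discovery rate of 0.05 (14.6%), 633 higher in plain cells (6.98%) and 688 lower (7.59%). Of the genes that passed, 284 were higher and 372 lower by more than 2-fold. Of them 98.6% went the same way in library 1 as in library 2, against 63.0% of the tested genes overall. The test used these same libraries, so this sameness is partly built in and is no replication. Errors of log2 fold changes are SEs, with n = 2 libraries. The spread of each gene had 3 residual degrees of freedom over the 4 capillary classes. It was drawn towards that of other genes (median prior 61.2 degrees of freedom), so p-values rest largely on this shared spread. Without the library block 715 genes passed, and DESeq2 called 698. Of 85 genes singled out by the naming rule, 55 kept their direction and call under every alternative with a test. Against Adamts4/Bcr cells and against Esm1 cells, Igfbp4, Col15a1, Tgfbr2, Ace, Calcrl, Bmp6, Lpl and Cldn5 did not pass. These genes are therefore not shown to be particular to plain cells among the Plvap classes. Meox2 passed against Adamts4/Bcr cells and Cmah against Esm1 cells, both higher in plain cells.

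The genes described first were the 12 largest passing changes each way. Only genes whose higher class reached 100 CPM in each library and whose direction was the same in both were ranked. Less abundant genes that passed, some with larger changes, appear with their lists. Cmah, which makes the sialic acid N-glycolylneuraminic acid, measured 315 and 210.0 CPM in plain Plvap cells, against 1.66 and 9.54 CPM in Gpihbp1/Aqp1 cells (log2 fold change 4.81 ± 0.24, adjusted p = 3.76e-23). Igfbp4, a secreted protein that binds insulin-like growth factors, measured 953 and 901 CPM in plain Plvap cells, against 11.6 and 46.8 CPM in Gpihbp1/Aqp1 cells (log2 fold change 4.57 ± 0.29, adjusted p = 3.38e-05). Both were low in one class and abundant in the other. Col15a1, a collagen of vessel basement membranes, measured 1000.3 and 693 CPM in plain Plvap cells, against 64.8 and 74.8 CPM in Gpihbp1/Aqp1 cells (log2 fold change 3.45 ± 0.14, adjusted p = 2.99e-30). Col13a1, a membrane-spanning collagen, measured 362 and 269 CPM in plain Plvap cells, against 4.98 and 16.3 CPM in Gpihbp1/Aqp1 cells (log2 fold change 4.37 ± 0.22, adjusted p = 8.39e-20). Itgb4, the integrin subunit of laminin attachment, measured 235 and 149.7 CPM in plain Plvap cells, against 14.95 and 15.7 CPM in Gpihbp1/Aqp1 cells (log2 fold change 3.44 ± 0.22, adjusted p = 2.90e-21). These 3 genes of cell attachment and matrix were high in plain cells of both libraries. Hcar1, the lactate receptor, measured 141 and 136 CPM in plain Plvap cells, against 8.31 and 9.54 CPM in Gpihbp1/Aqp1 cells (log2 fold change 3.89 ± 0.24, adjusted p = 1.43e-21). Exoc3l2 measured 239.5 and 312 CPM in plain Plvap cells, against 18.3 and 27.1 CPM in Gpihbp1/Aqp1 cells (log2 fold change 3.57 ± 0.18, adjusted p = 1.45e-26). The other increases within that limit were Syt15 (4.26), the tetraspanin Tspan8 (4.10), Dram1 (3.65), Tnfaip2 (3.33) and the surface protein Cd24a (3.24), each as a log2 fold change.

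Bmp6, a bone morphogenetic protein, measured 9.39 and 2.74 CPM in plain Plvap cells, against 184 and 157 CPM in Gpihbp1/Aqp1 cells (log2 fold change -5.34 ± 0.35, adjusted p = 1.45e-20). Lpl, which hydrolyses lipoprotein triglyceride, measured 46.96 and 9.13 CPM in plain Plvap cells, against 512 and 348 CPM in Gpihbp1/Aqp1 cells (log2 fold change -4.57 ± 0.25, adjusted p = 1.91e-18). Plain cells held little of either. Library 1 was the higher of the 2 for both, on few UMIs, and its Lpl came from 1 cell with 7 UMIs and 1 cell with 3. Meox2, a homeobox factor of fatty acid uptake in heart endothelium, measured 4.70 and 21.9 CPM in plain Plvap cells, against 397 and 366 CPM in Gpihbp1/Aqp1 cells (log2 fold change -4.28 ± 0.22, adjusted p = 3.02e-25). Cldn5, the main claudin of endothelial tight junctions, measured 23.5 and 57.5 CPM in plain Plvap cells, against 1440.2 and 868 CPM in Gpihbp1/Aqp1 cells (log2 fold change -4.30 ± 0.51, adjusted p = 0.0139). Timp4, an inhibitor of matrix metalloproteinases, measured 65.7 and 22.8 CPM in plain Plvap cells, against 915 and 746 CPM in Gpihbp1/Aqp1 cells (log2 fold change -4.65 ± 0.28, adjusted p = 1.55e-08). The other decreases within that limit were Ehd1 (-4.70), Lnx1 (-4.67), the cytochrome P450 gene Cyp4b1 (-4.13), Mtss1 (-3.94), Auts2 (-3.93), the monooxygenase Fmo1 (-3.45) and the protocadherin Pcdh19 (-3.45).

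**Figure D3:**
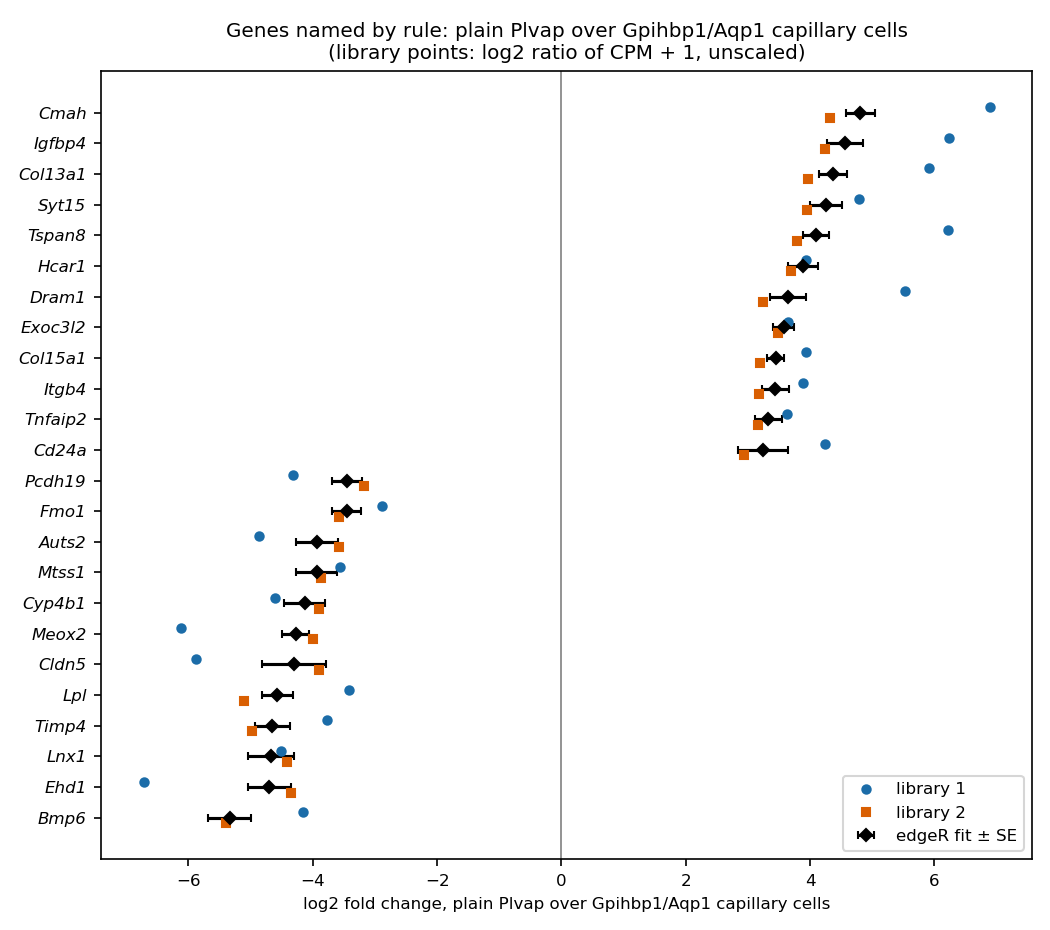
Log2 fold change (x axis) of plain Plvap cells over Gpihbp1/Aqp1 cells for the 12 largest increases and 12 largest decreases among passing genes whose higher class reached 100 CPM in each library (y axis), as the edgeR estimate with its SE (diamonds) and as the ratio of CPM plus 1 within library 1 (circles) and library 2 (squares). Genes were drawn only if both libraries went the same way, and the estimates run from 4.81 for Cmah to -5.34 for Bmp6. The ratios are unscaled, unlike the estimates.

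Of 18 tested lipid handling genes, 12 were lower and 3 higher in plain cells, with a median log2 fold change of -1.16, against -5.35e-05 for all genes tested. Beside Lpl and Meox2, the glycerol channel Aqp7 measured 14.1 and 66.7 CPM in plain Plvap cells, against 382 and 425 CPM in Gpihbp1/Aqp1 cells (log2 fold change -2.91 ± 0.29, adjusted p = 2.03e-05). Angptl4, an inhibitor of lipoprotein lipase, was at -2.79 ± 0.42. Pparg, Acsl1, Tcf15, Cd36, Cd300lg, Fabp4, Scarb1 and Fabp5 were lower too, and the genes higher included the cholesterol exporter gene Abca1 and Slc27a3. Abcg1 (0.02 ± 0.23) and Plin2 (-0.41 ± 0.22) did not pass. Lipid genes were therefore lower but not absent, since Fabp4 still measured 7185 and 7724 CPM in plain cells.

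Caveolar genes moved in both directions. Of 10 tested members of the diaphragm and caveolae list, 6 were lower and 2 higher (median -1.02), with Plvap itself left out as a gate gene. The caveolar coat genes Cavin2 (-1.17 ± 0.10), Cavin1, Cav2 and Cav1 and the EHD ATPases Ehd1 (-4.70 ± 0.35) and Ehd2 were lower. Ehd4 measured 1099 and 1116 CPM in plain Plvap cells, against 218 and 307 CPM in Gpihbp1/Aqp1 cells (log2 fold change 2.05 ± 0.12, adjusted p = 6.12e-17), and Cavin3 was higher by 1.14 ± 0.13. Dynamin 2 (Dnm2, -0.05 ± 0.17) and Pacsin2 (-0.21 ± 0.23) did not pass.

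Of 14 junction genes 8 were lower and 2 higher (median -0.60). Afdn (-1.37 ± 0.12), Jam2 (-1.25 ± 0.12) and the VE-cadherin gene Cdh5 (-0.996 ± 0.10) were among those lower, while Jam3 and Podxl were higher. Pecam1 (0.05 ± 0.09) and Emcn (-0.16 ± 0.10) did not pass. Among 12 genes of leukocyte adhesion and chemokines, 6 were lower and 2 higher (median -1.18). Cxcl9 (-4.55 ± 0.97), Cx3cl1 (-2.06 ± 0.52), Csf1 (-1.43 ± 0.28) and Vcam1 (-1.42 ± 0.44) were lower, all at low levels in plain cells. Cxcl12, the most abundant of them at 3391 and 3293 CPM in plain cells, did not pass (-0.21 ± 0.09).

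Receptors and enzymes of vessel tone were split. Of 17 tested vasoactive genes 8 were higher and 5 lower in plain cells (median 0.21). Ace, the angiotensin-converting enzyme, measured 902 and 693 CPM in plain Plvap cells, against 105 and 131 CPM in Gpihbp1/Aqp1 cells (log2 fold change 2.64 ± 0.13, adjusted p = 2.86e-23). Calcrl, the shared receptor of adrenomedullin and CGRP, measured 526 and 489 CPM in plain Plvap cells, against 94.7 and 106 CPM in Gpihbp1/Aqp1 cells (log2 fold change 2.30 ± 0.13, adjusted p = 8.81e-23). Its ligand adrenomedullin, Adm, was lower (-2.25 ± 0.37), as was the adenosine receptor gene Adora2a (-2.54 ± 0.54). Ramp3, Ptgs1, Npr3, Bdkrb2, Spns2 and Ramp2 were also higher, and S1pr1, Edn1 and Npr1 lower. Nos3 (-0.35 ± 0.15) and Ece1 (-0.22 ± 0.11) did not pass.

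Of 10 genes of coagulation and purines 6 passed, each of them higher (median 0.998), and DESeq2 called 4, each higher. Serpine2, a protease inhibitor, was at 3.79 ± 0.36, and Plat, tissue plasminogen activator, measured 211 and 191 CPM in plain Plvap cells, against 38.2 and 39.7 CPM in Gpihbp1/Aqp1 cells (log2 fold change 2.33 ± 0.17, adjusted p = 6.18e-18). F2rl3, Tfpi, Entpd1 and F2r were the others. Thbd (0.07 ± 0.12) and Anxa2 (0.17 ± 0.13) did not pass. Among 19 basement membrane and matrix genes 6 were higher and 3 lower (median -0.19), with Nid2 (1.97 ± 0.20), Lamb1 (1.53 ± 0.14) and Lamc1 (0.87 ± 0.16) following Col15a1. The collagen IV gene Col4a1 did not pass (-0.02 ± 0.09).

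Signalling lists were mixed. Of 15 tested BMP and TGF-beta genes 7 were lower and 2 higher (median -0.31). The ligands Bmp6 and Bmp4 (-3.69 ± 0.55) and the response gene Id1 (-1.09 ± 0.12) were lower, while the receptor Tgfbr2 measured 1146 and 892 CPM in plain Plvap cells, against 115 and 131 CPM in Gpihbp1/Aqp1 cells (log2 fold change 2.95 ± 0.12, adjusted p = 2.99e-30). Of 15 Notch genes 5 were lower and 3 higher (median -0.24). Hey2, an arterial Notch target, measured 46.96 and 49.3 CPM in plain Plvap cells, against 1.66 and 1.23 CPM in Gpihbp1/Aqp1 cells (log2 fold change 5.18 ± 0.48, adjusted p = 3.50e-14), while Nrarp (-1.31 ± 0.18), Jag2 (-1.10 ± 0.17) and Hes1 (-1.07 ± 0.11) were lower. Of 14 VEGF, angiopoietin and apelin genes 4 were higher and 1 lower (median -0.02): Vegfa (1.48 ± 0.32), Unc5b (0.53 ± 0.17), Nrp1 (0.45 ± 0.09) and Kdr higher, Angpt2 (-2.74 ± 0.42) lower. Of 7 Wnt response genes 2 passed, both lower, Axin2 (-2.45 ± 0.80) and Lrp5 (-0.81 ± 0.19).

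Among 28 tested transcription factors 10 were lower and 5 higher (median -0.18). Tshz2 measured 155 and 90.4 CPM in plain Plvap cells, against 691 and 569 CPM in Gpihbp1/Aqp1 cells (log2 fold change -2.45 ± 0.18, adjusted p = 7.55e-12), and Foxc1 was at -2.51 ± 0.63. Meox1 (1.66 ± 0.30), Lmo2 (1.18 ± 0.18), Mef2c, Hhex and Sox18 were higher. The flow-responsive factors Klf2 (-0.03 ± 0.16) and Klf4 (-0.14 ± 0.39) did not pass. Of 20 interferon response genes 10 were lower and 1 higher (median -0.46), with Ifit1 (-2.16 ± 0.40), Zbp1 (-1.85 ± 0.59), Ifit3 (-1.54 ± 0.35) and Rsad2 (-1.31 ± 0.19) lower and Ly6a higher. In library 1 alone the log2 ratio of Ifit3 was -0.0031 and that of Ifit1 -0.81, so their falls rest mostly on library 2. Cx3cl1 (-0.35), Igf1r (-0.17), Unc5b (0.18) and Tfpi (0.70) also had less than 0.5 of their fitted change in library 1. Reads of Gbp, Ly6 and H2 family genes are uncertain, since near-identical copies share them. Among 13 transporters 6 were lower and 4 higher. The lactate transporter Slc16a1 (2.25 ± 0.24) was higher, and the drug exporter Abcb1a measured 197 and 134 CPM in plain Plvap cells, against 757 and 559 CPM in Gpihbp1/Aqp1 cells (log2 fold change -1.997 ± 0.14, adjusted p = 1.56e-19). The taurine transporter gene Slc6a6 was among those lower.

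Of 12 MHC genes 2 were higher, Cd74 (1.88 ± 0.37) and H2-K1 (0.31 ± 0.09). Of 20 immediate early and heat shock genes 5 were lower and 1 higher, and Socs3, lower by the fit (-0.51 ± 0.12), stood at 0.09 when cells were thinned before gating. Of 10 glycolysis genes 2 were higher and 1 lower, of 7 cell cycle genes 1 was lower (Hmgb2, -0.53 ± 0.18), and of 13 tip cell genes 5 were lower and 3 higher. Of 5 IGF genes Igfbp4 and Igfbp3 (1.52 ± 0.11) were higher and the receptors Insr and Igf1r lower. Red cell genes were at 0.913 CPM in plain cells of library 2, against 3047 CPM in Gpihbp1/Aqp1 cells, where 1 cell held over 1% haemoglobin UMIs. Without such cells 1311 genes passed. Fibroblast genes were at 0 and 44.7 CPM in plain cells, against 84.7 and 176 CPM in Gpihbp1/Aqp1 cells. Smooth muscle genes were at 4.70 and 11.9 CPM in plain cells, against 23.3 and 133 CPM, and pericyte genes at 84.5 and 131 CPM, against 279 and 106 CPM in Gpihbp1/Aqp1 cells. Their part in the result was not tested.

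The second comparison set the plain cells against the Adamts4/Bcr cells, the largest class of Plvap capillary cells. Plain cells held less of Noct, Il6, Socs3, Rnd1, Gja1 and Dll4, and more of the taurine transporter gene Slc6a6, the apelin receptor gene Aplnr and Txnip. Of 9066 genes 615 passed edgeR's quasi-likelihood test (6.78%), 123 higher (1.36%) and 492 lower (5.43%) in plain cells. Of them 96.4% went the same way in both libraries, against 57.7% of all tested, which is again partly built in. Without the library block 111 genes passed, and DESeq2 called 170 of the 3969 genes to which it gave an adjusted p-value. With no scaling beyond library totals the split was 300 higher and 293 lower, and the median over all genes was 0.14, against -0.01 with scaling. Plain cells had fewer UMIs than Adamts4/Bcr cells, as given above. With all cells thinned to 2000 UMIs before gating 465 genes passed, 76 higher and 389 lower. Of 61 genes singled out by the naming rule, 22 kept their direction and call under every alternative with a test.

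Among genes that reached 100 CPM in the higher class, Slc6a6, which imports taurine, had the largest increase. It measured 188 and 264 CPM in plain Plvap cells, against 87.2 and 99.9 CPM in Adamts4/Bcr cells (log2 fold change 1.18 ± 0.15, adjusted p = 6.52e-09). It passed under all 14 alternatives with a test, at 0.80 to 1.52. Aplnr, the receptor of apelin, measured 197 and 171 CPM in plain Plvap cells, against 84.7 and 88.2 CPM in Adamts4/Bcr cells (log2 fold change 0.87 ± 0.16, adjusted p = 1.59e-04). It did not pass without the library block, with gates and test on separate UMIs, or in thinned cells, where it was at 0.37. Txnip, the thioredoxin-binding protein induced by glucose, measured 596 and 804 CPM in plain Plvap cells, against 338 and 391 CPM in Adamts4/Bcr cells (log2 fold change 0.83 ± 0.11, adjusted p = 8.05e-08). All 3 were higher in plain cells in both libraries, as the naming rule required. Ephb4, a receptor of venous identity, measured 225 and 208 CPM in plain Plvap cells, against 129.6 and 121 CPM in Adamts4/Bcr cells (log2 fold change 0.64 ± 0.14, adjusted p = 0.00137). Other increases of genes that reached 100 CPM were Ttc14 (0.74), Epn2 (0.64), Gimap8 (0.63), Ttc3 (0.60), Hspa12b (0.58), the aryl hydrocarbon receptor gene Ahr (0.58), Nck1 (0.56) and Snrk (0.56).

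Noct, a circadian and immediate early gene, measured 32.9 and 16.4 CPM in plain Plvap cells, against 139.6 and 116 CPM in Adamts4/Bcr cells (log2 fold change -2.79 ± 0.25, adjusted p = 4.98e-13). Il6, the cytokine interleukin 6, measured 4.70 and 25.6 CPM in plain Plvap cells, against 128 and 128 CPM in Adamts4/Bcr cells (log2 fold change -2.70 ± 0.25, adjusted p = 5.66e-12). Plain cells of library 1 held 1 Il6 UMI. Plaur, the urokinase receptor, measured 46.96 and 30.1 CPM in plain Plvap cells, against 118 and 125 CPM in Adamts4/Bcr cells (log2 fold change -2.03 ± 0.22, adjusted p = 2.63e-10). Gja1, connexin 43, measured 329 and 229 CPM in plain Plvap cells, against 886 and 790.1 CPM in Adamts4/Bcr cells (log2 fold change -1.80 ± 0.15, adjusted p = 7.88e-10). Adamts9, a protease related to the gate gene Adamts4, measured 117 and 147 CPM in plain Plvap cells, against 369 and 403 CPM in Adamts4/Bcr cells (log2 fold change -1.61 ± 0.17, adjusted p = 1.04e-08). These 5 were picked as large changes with the same direction in both libraries, so the gap between classes follows in part from the choice. Other decreases of genes that reached 100 CPM were Rnd1 (-1.89), Trib1 (-1.72), Socs3 (-1.58), Rel (-1.54), Irf8 (-1.47), Dll4 (-1.40) and Pde12 (-1.36).

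**Figure D4:**
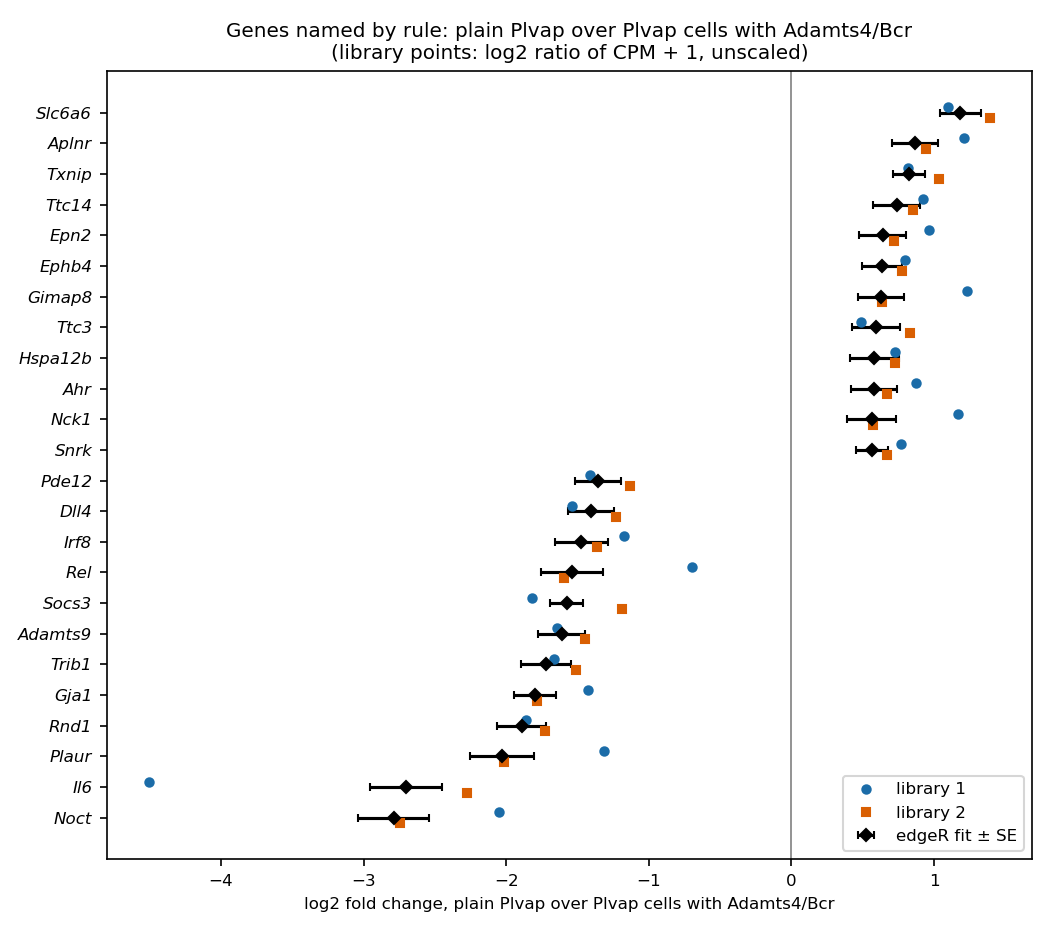
Log2 fold change (x axis) of plain Plvap cells over Adamts4/Bcr cells for the 12 largest increases and 12 largest decreases among passing genes whose higher class reached 100 CPM in each library (y axis), drawn as edgeR estimates with SE (diamonds) and as ratios of CPM plus 1 in library 1 (circles) and library 2 (squares). Only genes with the same direction in both libraries were drawn. The ratios are unscaled, unlike the estimates. Increases reach 1.18 (Slc6a6) and decreases reach -2.79 (Noct).

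Of 20 immediate early and heat shock genes 10 passed, each of them lower in plain cells (median -0.67), and DESeq2 called 12, each lower. Without the library block 3 passed. Socs3, a feedback inhibitor of cytokine receptors, measured 469.6 and 675 CPM in plain Plvap cells, against 1661 and 1540.3 CPM in Adamts4/Bcr cells (log2 fold change -1.58 ± 0.12, adjusted p = 4.09e-13). Nfkbia (-1.10 ± 0.15), Ier3 (-0.93 ± 0.18), Dnajb1 (-0.93 ± 0.14), Jund, Hspa1a, Hsp90aa1, Hspa1b, Hspb1 and Btg2 were the others, of which Hspa1a and Hspa1b are near-identical copies with uncertain counts. Junb (-0.66 ± 0.25) and Egr1 (-0.52 ± 0.32) did not pass. The median was below 0 in each of the 9 settings in which the list was computed, from -0.90 to -0.46. Per cell at 2000 UMIs, the list summed to medians of 15 and 41 UMIs in plain cells, against 52.5 and 54 UMIs in Adamts4/Bcr cells. The ranges overlapped widely, with the middle 80% of plain cells from 3 to 76.6 and 6 to 85 UMIs, against 21.5 to 84.5 and 21 to 86 UMIs in Adamts4/Bcr cells.

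Of 15 Notch genes 4 were lower and 1 higher (median -0.19), and of all 615 passing genes 492 were lower, so the split is that of the background. The ligand Dll4 measured 127 and 167 CPM in plain Plvap cells, against 370.1 and 392 CPM in Adamts4/Bcr cells (log2 fold change -1.40 ± 0.16, adjusted p = 1.35e-07), and the target genes Nrarp (-1.06 ± 0.18) and Hes1 (-0.55 ± 0.11) and the receptor Notch1 were lower as well. Efnb2 (-0.24 ± 0.14) and Notch4 (0.11 ± 0.16) did not pass. Of 20 interferon response genes 5 passed, each lower (median -0.16), and with no scaling 5 were lower and 2 higher. Iigp1, an immunity-related GTPase, measured 657 and 682 CPM in plain Plvap cells, against 1566 and 1190.1 CPM in Adamts4/Bcr cells (log2 fold change -1.13 ± 0.10, adjusted p = 1.04e-12), and Irf1 was at -1.01 ± 0.12. Of 10 glycolysis genes Pfkp (-0.68 ± 0.17), Ldha (-0.57 ± 0.11) and Gapdh (-0.39 ± 0.12) were lower, and the glucose transporter Slc2a1 was at -1.31 ± 0.23.

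Of 7 cell cycle genes Top2a (-1.40 ± 0.45) and Pcna (-0.98 ± 0.18) were lower. Top2a passed in 3 of the 11 alternatives in which it was tested, and Pcna in 14 of 14. Of 19 matrix genes Adamts9, Sparcl1 (-0.30 ± 0.09) and Col4a1 (-0.29 ± 0.09) were lower. In the adhesion list Icam1 (-1.09 ± 0.15) and Cx3cl1 (-1.89 ± 0.52) were lower and Vcam1 (2.70 ± 0.65) higher. Vcam1 had no UMI in library 1 in either class. Of 10 coagulation and purine genes Vwf, von Willebrand factor, was higher (0.46 ± 0.14) and Procr (-1.02 ± 0.28) and Plat (-0.57 ± 0.14) were lower. Vwf passed in 5 of 14 alternatives and was at 0.12 in thinned cells. Of 28 transcription factors Sox7 was lower (-1.11 ± 0.15). Of 14 junction genes and 7 Wnt genes none passed edgeR's test and DESeq2 called none, while 3 of these 21 had an unadjusted p under 0.05. Any member without an adjusted p-value from DESeq2 could not be called by it. Of 17 vasoactive genes Edn1 and Npr1 were higher, of 10 caveolar genes Cavin2 was higher and Ehd4 lower, and of 15 BMP and TGF-beta genes Id1 and Tgfb1 were lower. Igfbp3 and the MHC light chain gene B2m were each the single member of their list to pass, both lower, and Aplnr was the single VEGF, angiopoietin and apelin gene. Of 13 tip cell genes Plaur and Dll4 were lower, and of 13 transporters Aqp7, Slc26a10 and Slc6a6 were higher and Slc2a1 and Abcc4 lower. Epithelial genes were at 4.70 and 12.8 CPM in plain cells, against 0 and 789 CPM in Adamts4/Bcr cells. Fibroblast genes were at 0 and 44.7 CPM in plain cells, against 21.2 and 215 CPM, and red cell genes at 0 and 0.913 CPM, against 2.49 and 34.6 CPM in Adamts4/Bcr cells. Their part in these differences was not tested. Several of these changes had less than 0.5 of the fitted value in 1 library. The ratios of single libraries are unscaled, while the fitted values are scaled. With no scaling the median over all genes was 0.14, against -0.01 with scaling, so falls read smaller in these ratios. A small ratio in 1 library is thus not by itself a lack of change there. In library 1 alone the log2 ratio was -0.13 for Procr, -0.018 for Igfbp3, -0.068 for Col4a1, -0.13 for B2m, -0.12 for Tgfb1, -0.18 for Ehd4, -0.15 for Gapdh, -0.31 for Pfkp, -0.64 for Slc2a1 and -0.70 for Rel. In library 2 alone it was -0.17 for Hes1 and -0.13 for Sparcl1.

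**Figure D5:**
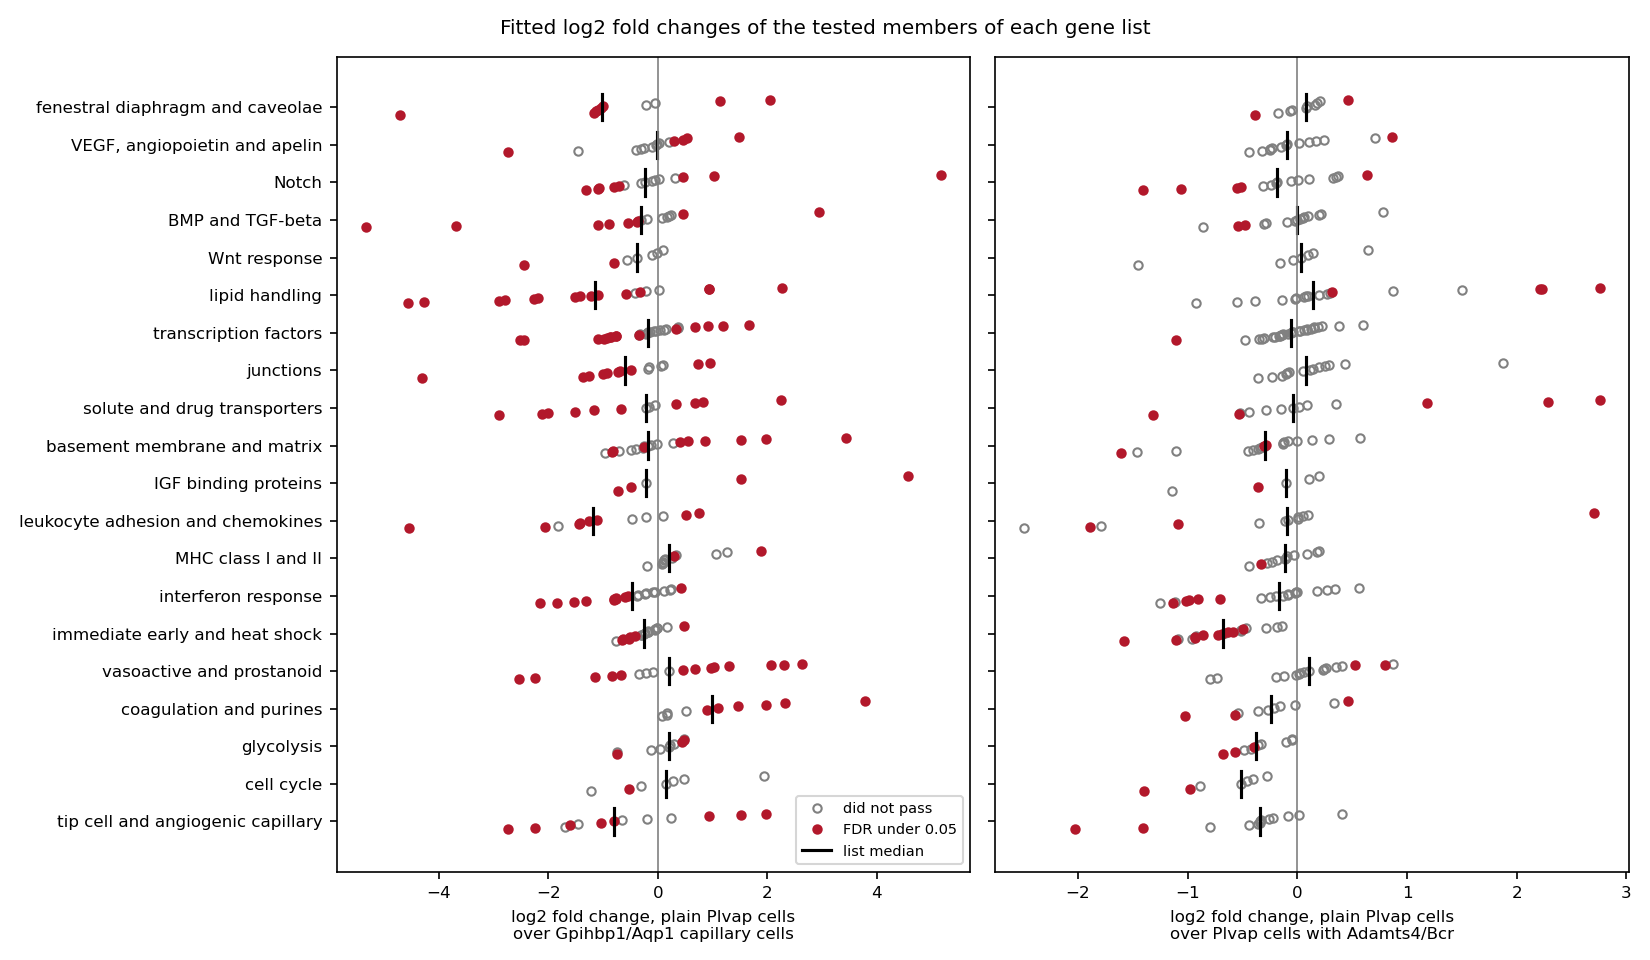
Fitted log2 fold changes (x axis) of the tested members of 20 gene lists (y axis), for plain Plvap cells over Gpihbp1/Aqp1 cells (left) and over Adamts4/Bcr cells (right). Red points passed a false discovery rate of 0.05, open grey points did not, and vertical bars are list medians, such as -1.16 for lipid handling on the left and -0.67 for immediate early and heat shock genes on the right.

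Lipid handling genes that passed against the Adamts4/Bcr cells were higher in plain cells. Of 18 tested, 4 passed, each higher (median 0.15), and DESeq2 called 1, also higher. Both comparisons share the plain cells. Aqp7 measured 14.1 and 66.7 CPM in plain Plvap cells, against 0 and 8.68 CPM in Adamts4/Bcr cells (log2 fold change 2.76 ± 0.45, adjusted p = 0.00302), and the nuclear receptor gene Pparg (2.23 ± 0.51), Meox2 (2.21 ± 0.43) and the fatty acid binding protein gene Fabp4 (0.32 ± 0.08) were the others. Meox2 had a log2 ratio of 0.27 in library 1 alone and 2.31 in library 2 alone, so its fold rests on library 2. With cells that had any Gpihbp1 or Aqp1 UMI left out of the Plvap classes, no lipid gene passed (median -0.08) and Fabp4 was at 0.02, while Slc6a6 still passed at 0.88. In that setting 400 genes passed in all, 61 higher and 339 lower.

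Plain cells were then divided by Gpihbp1 and Aqp1, a division made after the values were seen and given with no test. In all, 23 and 130 plain cells had at least 1 UMI of either gene, and 49 and 201 had none. Btnl9, a butyrophilin-like gene, was at 241 and 328 CPM in the cells with such a UMI, against 0 and 17.3 CPM in the cells without. Fabp4 was at 9066 and 9950 CPM in the cells with one, against 5988 and 6113 CPM in those without. Aqp7 was at 0 and 152 CPM in cells with a UMI, against 23.1 and 4.72 CPM in cells without, so the libraries went opposite ways, on 3 UMIs in library 1. Plvap was alike on both sides, at 4467 and 4216 CPM with a UMI, against 4512 and 4532 CPM without. Slc6a6 was at 266 and 350.2 CPM with a UMI, against 138 and 201 CPM without. Cells with a UMI were deeper, with medians of 3192 and 3559 UMIs, against 2263 and 2876 UMIs, and the part of depth was not tested.

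The last comparison set the plain cells against the Esm1 cells, which carry the proteoglycan gene Esm1, known from endothelial tip cells. Fewest genes passed in this comparison. Of 9066 genes 51 passed edgeR's quasi-likelihood test (0.563%), 22 higher (0.243%) and 29 lower (0.32%) in plain cells. At an unadjusted p under 0.05 there were 619. Library 1 held 36 Esm1 cells, so these sums were the smallest. DESeq2 called 8 of the 2914 genes to which it gave an adjusted p-value, and the test without the library block called 1. None of the 27 genes singled out by the naming rule kept its call under every alternative.

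Slc6a6 again had the largest increase among genes that reached 100 CPM in plain cells, with 188 and 264 CPM in plain Plvap cells, against 70.9 and 89.3 CPM in Esm1 cells (log2 fold change 1.55 ± 0.19, adjusted p = 6.45e-08). Vwf measured 291 and 207 CPM in plain Plvap cells, against 157 and 119 CPM in Esm1 cells (log2 fold change 0.86 ± 0.18, adjusted p = 0.00489), and Entpd1, the ectoenzyme CD39 that degrades ATP, measured 296 and 297 CPM in plain Plvap cells, against 126 and 200.4 CPM in Esm1 cells (log2 fold change 0.67 ± 0.16, adjusted p = 0.0317). These 3 went the same way in both libraries, as the naming rule required. The other increases named by the rule were Myof (1.26), Cmah (0.96), Itgb4 (0.90), Adgre5 (0.89), Myadm (0.80), Litaf (0.77), Prss23 (0.76), Rasa4 (0.76) and Apold1 (0.73). In library 1 alone Myof was at 0.39 and Adgre5 at 0.43. Fam167b measured 65.7 and 66.7 CPM in plain Plvap cells, against 126 and 191 CPM in Esm1 cells (log2 fold change -1.43 ± 0.21, adjusted p = 7.33e-06), and Mef2c, a transcription factor, measured 761 and 705 CPM in plain Plvap cells, against 1032 and 1101 CPM in Esm1 cells (log2 fold change -0.56 ± 0.11, adjusted p = 0.00292). Both were lower in plain cells of both libraries, as the naming rule required. Other decreases named by the rule were Rsad2 (-1.18), Sept4 (-0.99), Fam198b (-0.94), Slc16a1 (-0.93), Hlx (-0.83), Ptp4a3 (-0.68), Plpp1 (-0.62), Smco4 (-0.57) and Pcdh17 (-0.56).

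Of the 20 gene lists, 14 had no member past edgeR's test against Esm1 cells. Of the 186 genes tested in these, 40 had an unadjusted p under 0.05 and DESeq2 called 1. Any of them without an adjusted p-value from DESeq2 could not be called by it. No list had more than 2 members that passed. The tip cell list, which left out Esm1 as a gate gene, was among the 14 (median -0.14), and Mcam was at 0.28 ± 0.15. The VEGF receptors and coreceptors Kdr (-0.36 ± 0.10) and Nrp1 (-0.36 ± 0.09) did not pass. Coagulation and purine genes had 2 higher members, Vwf and Entpd1. Nr2f2, a factor of venous identity, passed in the transcription factor list (2.26 ± 0.54), but in library 1 alone its log2 ratio was -0.15. Cd74 was higher (1.996 ± 0.49) and the caveolar ATPase gene Ehd4 lower (-0.53 ± 0.12), with -0.13 in library 1 alone.

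The spread among the plain cells was measured gene by gene. Cells with at least 2000 UMIs (45 and 259 cells) were thinned to 2000, and the variance over mean was computed for 3030 genes with a mean of at least 0.1 UMIs in both libraries, where the medians were 1.09 and 1.08. Gm42418 had 33.9 and 54.4, and the nuclear RNA Malat1 14.4 and 13.3. Fabp4 followed with 15.6 and 10.9, and Scgb3a1 with 5.05 and 6.33. Of the given markers Igfbp7 was also among the 20 most variable genes, with 3.22 and 4.09. The immediate early genes Junb (5.09 and 4.65), Egr1 (4.38 and 4.84), Fos (9.44 and 4.31), Jun (4.96 and 3.85), Ier3 (3.90 and 3.79), Atf3 (3.21 and 4.01) and Btg2 (3.58 and 3.18) and the heat shock gene Hspa1a (3.61 and 5.89) were also among these 20. Cxcl12 (7.29 and 4.47), Iigp1 (4.39 and 4.48), Igfbp3 (3.97 and 5.42) and Btnl9 (5.05 and 3.68) were among the others, with Tmsb4x, Tpt1 and Actb. Btnl9 was seen in 8.89 and 10.4% of the thinned plain cells, at a mean of 0.333 and 0.309 UMIs.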

How the data were processed

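Per the labels' protocols, ileal endothelial cells were sorted and run on the Chromium Single Cell 3' v3 chemistry; bcl2fastq 2.2, Cell Ranger 3.1.0 and the mm10 build are named in the submitters' processing notes. The deposited files hold the authors' filtered matrices of raw UMI counts, with 31053 genes, for 1026 and 6302 barcodes (3806199 and 26645476 UMIs in all). Cells under 500 genes or over 15% mitochondrial UMIs were dropped, and classes were set by the gates in the text. Venous and arterial cells passed the blood endothelial and lymphatic gates. They had more than 1 UMI of only the venous or only the arterial genes. No clustering or doublet caller was used; an alternative left out the 5% of cells with the most UMIs. Counts were summed per library and class. The 4 capillary classes in 2 libraries gave 8 sums, which were fitted with edgeR 4.0.16 (R 4.3.3, TMM scaling, filterByExpr with a minimum count of 10, robust quasi-likelihood, library as block), with Benjamini-Hochberg adjustment over 9066 genes. Gate genes and the 5 given markers were left out of the test. Sums of the same library share its preparation and sequencing, which is why the library was the block. Named genes were the 12 largest passing changes each way whose higher class reached 100 CPM and whose direction held in each library. For each list they were the 4 largest passing changes and the 2 most abundant genes that did not pass. Members and lists were chosen with earlier results of these data known. The tests were also run on simulated counts. These had a common profile with set changes in plain cells and the same spread for all genes, a simpler setting than these data. The simulation therefore does not bear on whether single calls are right. DESeq2 1.42.0, other scaling, other filters, thinned counts and separate UMIs for gates and test were alternatives. Levels of a 3' assay are not compared between genes. Sequence came from RefSeq (GRCm38.p6) and gene positions from GENCODE. Some genes that the naming rule picks are not reported here.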

Additional observations from a re-analysis of the deposited data

How the results depend on the processing

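Against Gpihbp1/Aqp1 cells the 1321 genes fell to 698 with DESeq2, 715 without the replicate block and 802 with equal cell numbers, and other settings with a test stayed within 1.5 times. Against Adamts4/Bcr cells the 615 genes became 170 with DESeq2, 111 without the replicate block, 339 with gates and test on separate UMIs, 200 with equal cell numbers and 400 without Gpihbp1 or Aqp1 UMIs. Against Esm1 cells the 51 genes became 8 with DESeq2, 1 without the replicate block, 17 with separate UMIs, 10 with equal cell numbers, 21 with no Adamts4 or Bcr UMI and 16 with no Gpihbp1 or Aqp1 UMI. The share of plain cells moved to 11.8% in library 1 and 12.4% in library 2 when gates used thinned counts, and to 4.86% in library 2 with Plvap at least 3 UMIs ahead. Socs3 against Gpihbp1/Aqp1 cells reversed to 0.0929 in thinned cells, and Nr2f2 against Esm1 cells was -0.15 without replicate 2 and 2.51 without replicate 1; the cause was not tested. Thinned cells, cells without Adamts4 or Bcr UMIs and cells without Gpihbp1 or Aqp1 UMIs were settings chosen after seeing the data. Leaving out a library leaves 1 sum per class and no residual degrees of freedom, so counts of genes have no value there and single genes have a ratio with no test. The 72 plain cells of library 1 and the 3 residual degrees of freedom limit the precision.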
